A study of Saccharomyces cerevisiae with 8 samples.

Results

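The genes described here are 10 genes of the glyoxylate cycle and of gluconeogenesis in budding yeast: ICL1, ICL2, MLS1, MDH2, MDH3, IDP2, PCK1, FBP1, CAT8 and ADY2. They were taken by gene symbol from the platform annotation. All 10 were found, each by 1 probe set, among 5449 genes with a probe set, and all 10 are among the 5324 genes tested. Transcripts were read on 8 Affymetrix arrays from 8 cultures of BY4742, a haploid laboratory strain recorded as his3 leu2 lys2 ura3, grown in synthetic complete medium with dextrose to mid-log phase. The 4 groups held 2 biological replicates each. The first received carnitine and then 0.4 mM hydrogen peroxide for 30 min, the second the same peroxide alone, the third carnitine alone, and the fourth, the control, neither. The carnitine dose is given as 100 mg/L in the series design and as 1000 mg/L in the treatment protocol. All groups share the strain, its auxotrophies and the glucose medium, and all values come from cultures as a whole, in which fewer cells with a transcript and less transcript per cell cannot be told apart.

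The glyoxylate cycle lets cells build sugar from compounds of 2 carbon atoms by bypassing the steps of the tricarboxylic acid cycle that release carbon dioxide. Isocitrate lyase splits isocitrate into succinate and glyoxylate, malate synthase joins glyoxylate to acetyl-CoA, and malate dehydrogenase yields oxaloacetate, from which phosphoenolpyruvate carboxykinase and fructose-1,6-bisphosphatase start and complete the path to hexose phosphates. In glucose-grown yeast several, not all, of these genes are known to be repressed. The kinase Snf1 and the activator Cat8 switch those on when glucose runs out. Carnitine enters the same area of metabolism, because acetyl groups made in the peroxisome can leave it either as intermediates of this cycle or bound to carnitine.

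The deposited signals are linear intensities, and the 8 array medians over tested genes ran between 3044 and 3198. Probe sets for fission yeast, which should find no target here, had a median of 3.838 and a highest mean of 4.947, and the floor for testing was their 95th percentile of 4.145. Changes are log2 differences ± SE, and all p-values are from limma fitted over the 8 arrays, with "rose" and "fell" kept for adjusted p below 0.05. They are taken from the signals as deposited, whose normalization is not stated. Scaled to poly-A spikes, which are added to the RNA, the median change of all tested genes would be -0.603 for peroxide without carnitine, 0.074 for peroxide in carnitine-fed cells, 0.122 for carnitine alone, 0.806 for carnitine during peroxide and 0.682 for the interaction. Scaled to hybridisation spikes, added with the labelled material, these medians would be 0.459, 0.33, 0.189, 0.067 and -0.124 in the same order. LEU2, LYS2 and URA3 lay below the floor, between 3.87 and 4.09, while HIS3 read 10505 to 17056. The genotype field names mating type a, whereas the α-cell genes MF(ALPHA)1, MF(ALPHA)2 and STE3 read 16046 to 51980 and the a-cell genes MFA1, MFA2, STE2 and BAR1 read 5.48 to 241.

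Peroxide raised MLS1 and IDP2 several-fold and PCK1 more modestly, whether or not carnitine was present. ICL1, the gene of the lyase that opens the cycle, did not move with MLS1: without carnitine it fell under peroxide, though not under hybridisation spike scaling (-0.19, not passing). MDH2 was lower with carnitine alone and with peroxide alone, and fell by 0.62 on the log2 scale in each. The carnitine call was the weaker, ending under poly-A (-0.49) and hybridisation (-0.43) spike scaling. The peroxide call ended under hybridisation spike scaling only (-0.13). FBP1 stayed at the level of probe sets without a target. ADY2 and CAT8 were higher in cultures given both treatments than in cultures given peroxide alone, at low signals.

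**Figure D1:**
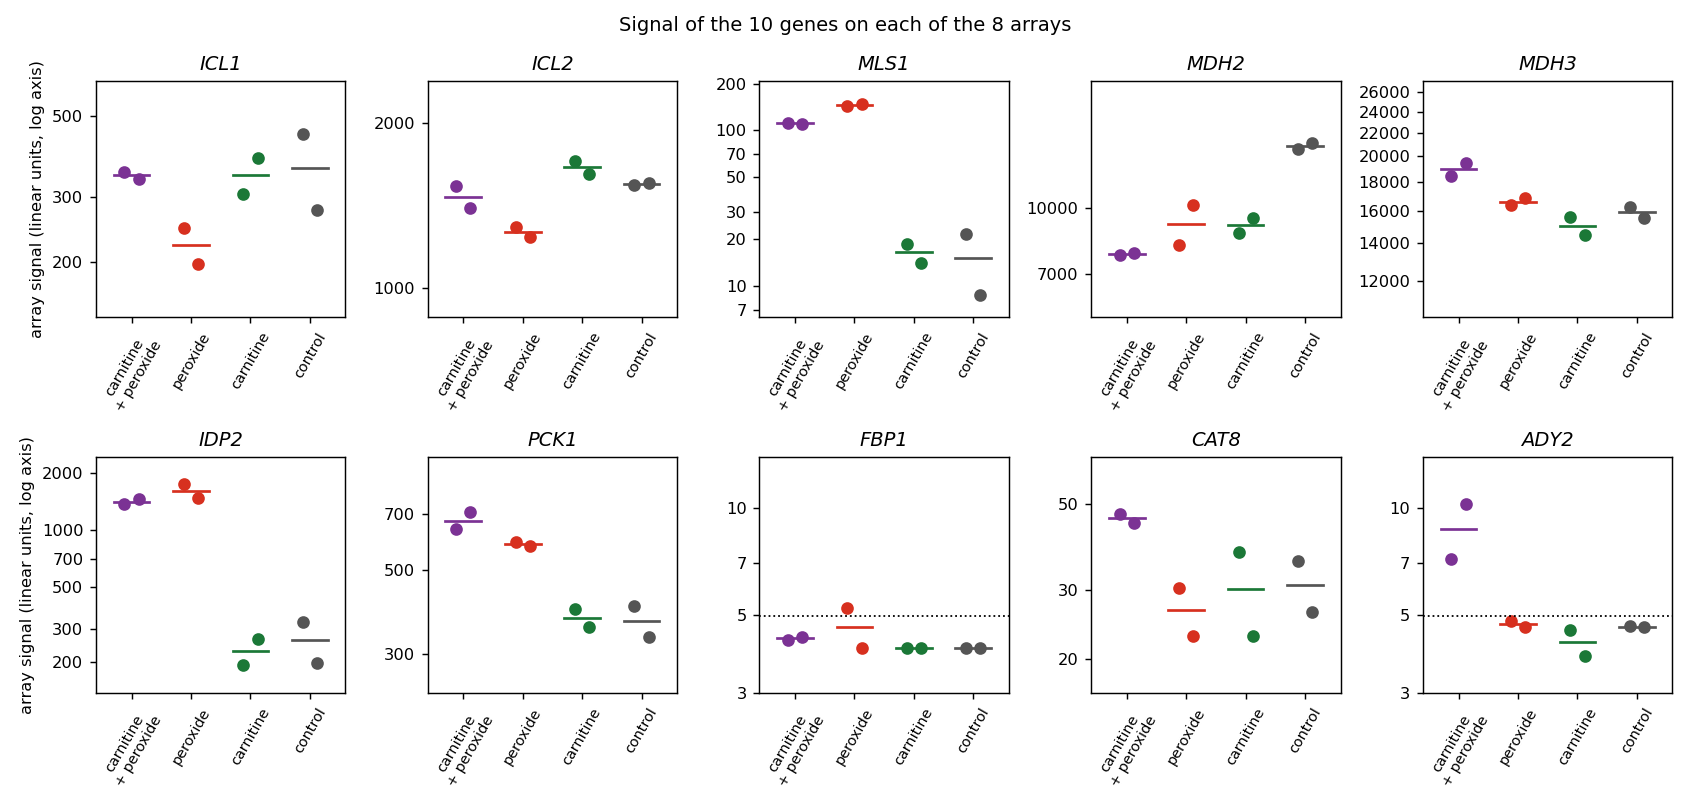
Signal of each of the 10 genes (linear units on a log axis, with its own range in each panel) in carnitine with peroxide, peroxide, carnitine and control cultures; points are arrays (n = 2 a group), lines are group means, and the dotted line in the FBP1 and ADY2 panels marks 4.947, the top mean among fission yeast probe sets. MLS1, IDP2 and PCK1 separate peroxide-treated from other cultures, MDH2 is highest in control cultures, and FBP1 lies above the dotted line on 1 array.

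MLS1 encodes malate synthase, which joins glyoxylate and acetyl-CoA. Its signal was 111.1 and 110.8 in carnitine with peroxide cultures, 143 and 149 in peroxide cultures, 18.7 and 14.1 in carnitine cultures and 21.5 and 8.77 in control cultures. The peroxide-treated arrays lay above all others, and the carnitine and control arrays overlapped. Without carnitine MLS1 rose with peroxide by 3.41 ± 0.36, which is 10.6-fold (adjusted p = 8.14e-05), and in carnitine-fed cells by 2.78 ± 0.36, or 6.85-fold (adjusted p = 0.000231). The 2 control arrays differed by 1.29 on the log2 scale, at percentile 99.7 of all tested genes, and the first rise was 4.05 without control culture 1 and 2.76 without control culture 2. When 50 was added to the signals first, the rises were 1.59 and 1.28. Between carnitine with peroxide and peroxide cultures, MLS1 arrays did not overlap but the difference of -0.39 ± 0.36 did not pass (adjusted p = 0.424).

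ICL1 encodes isocitrate lyase, the first enzyme of the bypass. Its signal was 352 and 338 in carnitine with peroxide cultures, 247 and 198 in peroxide cultures, 306 and 384 in carnitine cultures and 446 and 277 in control cultures. Peroxide cultures were the lowest, and the other 3 groups overlapped. ICL1 fell by 0.67 ± 0.24 with peroxide (adjusted p = 0.0325), and the call ended, at -0.33 and -0.51, without control culture 1 or peroxide culture 2, whereas the change was -1.01 without control culture 2. Scaled to hybridisation spikes it was -0.19 and did not pass, and scaled to poly-A spikes it was -1.25. In carnitine-fed cells the peroxide difference was 0.0096 ± 0.24 (adjusted p = 0.977, 95% interval -0.542 to 0.561), and the interaction, 0.68 ± 0.33, did not pass either (adjusted p = 0.206). With peroxide present, cultures with carnitine read higher than those without by 0.64 ± 0.24, with no overlap, at an adjusted p of 0.0693.

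ICL2 encodes a mitochondrial relative of isocitrate lyase that acts on 2-methylisocitrate. It read 1535 and 1395 in carnitine with peroxide cultures, 1291 and 1237 in peroxide cultures, 1702 and 1615 in carnitine cultures and 1541 and 1553 in control cultures. The order from low to high was peroxide, both treatments, control and carnitine, and neighbouring groups did not overlap. With peroxide alone ICL2 fell by 0.29 ± 0.089 (adjusted p = 0.0182), but it turned to 0.19 under hybridisation spike scaling, was -0.87 under poly-A spike scaling and lost its call without control culture 1, control culture 2 or peroxide culture 2 (changes of -0.30, -0.29 and -0.26). Its other 4 comparisons did not pass.

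MDH2 encodes the cytosolic malate dehydrogenase of the cycle. The signal was 7779 and 7848 in carnitine with peroxide cultures, 8182 and 10154 in peroxide cultures, 8760.25 and 9475 in carnitine cultures and 13783 and 14174 in control cultures. Control stood above the 3 treated groups, of which peroxide and carnitine overlapped each other. MDH2 fell by 0.62 ± 0.097 with carnitine alone (adjusted p = 0.0305) and likewise fell by 0.62 ± 0.097 with peroxide alone (adjusted p = 0.000671). The carnitine call ended on leaving out control culture 1 or 2, carnitine culture 1 or 2, or culture 1 or 2 of carnitine with peroxide (changes of -0.67 to -0.56), and over all 20 alternatives the adjusted p ran between 0.00539 and 0.988. Under hybridisation spike scaling the peroxide change was -0.13 and did not pass, and under poly-A spike scaling it was -1.19. Cultures given both treatments differed from carnitine cultures by -0.22 ± 0.097 (adjusted p = 0.0699) and from peroxide cultures by -0.22 ± 0.097 (adjusted p = 0.111), the first being 0.13 when scaled to hybridisation spikes and the second 0.58 when scaled to poly-A spikes.

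MDH3 encodes the peroxisomal malate dehydrogenase, which also reoxidises NADH made by fatty acid oxidation there. It read 18474 and 19461.5 in carnitine with peroxide cultures, 16387 and 16823 in peroxide cultures, 15584.5 and 14452 in carnitine cultures and 16211.5 and 15542 in control cultures. Both cultures given both treatments exceeded all others. MDH3 rose with peroxide in carnitine-fed cells by 0.34 ± 0.055 (adjusted p = 0.000787; 0.43, not passing, under poly-A and 0.69 under hybridisation spike scaling), and was higher with carnitine than without it during peroxide by 0.19 ± 0.055 (adjusted p = 0.0324). The second call ended without any 1 of the 4 arrays compared (changes of 0.15 to 0.23) and under hybridisation spike scaling (0.25), and was 0.99 under poly-A spike scaling. Peroxide without carnitine gave 0.065 ± 0.055 (adjusted p = 0.315), which became -0.51 under poly-A spike scaling, and the interaction of 0.27 ± 0.078 did not pass (adjusted p = 0.0601).

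IDP2 encodes the cytosolic isocitrate dehydrogenase that makes NADPH, and it is commonly expressed together with the glyoxylate cycle. Its signal was 1368 and 1468 in carnitine with peroxide cultures, 1753 and 1473 in peroxide cultures, 191 and 263 in carnitine cultures and 323 and 196 in control cultures. The 4 peroxide-treated arrays lay well above the other 4, and carnitine and control overlapped while the 2 peroxide-treated groups did not. IDP2 rose with peroxide by 2.67 ± 0.25, or 6.39-fold, without carnitine (adjusted p = 4.06e-05) and by 2.66 ± 0.25, or 6.32-fold, in carnitine-fed cells (adjusted p = 3.8e-05). The interaction was -0.015 ± 0.36, with a 95% interval from -0.846 to 0.815. The carnitine differences, -0.17 ± 0.25 without and -0.18 ± 0.25 with peroxide, did not pass, and the second was 0.62 under poly-A spike scaling.

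PCK1 encodes phosphoenolpyruvate carboxykinase, which commits oxaloacetate to sugar synthesis. It read 639.7 and 709.5 in carnitine with peroxide cultures, 591 and 578 in peroxide cultures, 394 and 354 in carnitine cultures and 402 and 332 in control cultures. Both peroxide-treated groups lay above the others, and carnitine and control overlapped. PCK1 rose by 0.68 ± 0.13 with peroxide alone, or 1.599-fold (adjusted p = 0.0021), and by 0.85 ± 0.13, or 1.80-fold, in carnitine-fed cells (adjusted p = 0.000586). Under poly-A spike scaling the first change was 0.099 and did not pass, and under hybridisation spike scaling it was 1.16. FBP1, for fructose-1,6-bisphosphatase, read 4.25 and 4.31 in carnitine with peroxide cultures, 5.21 and 4.02 in peroxide cultures, 4.01 and 4.01 in carnitine cultures and 4.02 and 4.01 in control cultures. It lay above the highest fission yeast mean on 1 of 8 arrays, passed the floor only through peroxide culture 1 (mean log2 signal 2.032 without it, against a floor of 2.051), and did not pass in any comparison. For peroxide without carnitine it passed under hybridisation spike scaling, at 0.67, still with 1 of 2 arrays above the highest fission yeast mean.

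CAT8 encodes the zinc cluster activator of the gluconeogenic genes. Its signals were 47.3 and 44.7 in carnitine with peroxide cultures, 30.3 and 22.9 in peroxide cultures, 37.7 and 22.8 in carnitine cultures and 35.7 and 26.3 in control cultures. Cultures with both treatments were above all the others, which overlapped. During peroxide CAT8 was higher with carnitine by 0.80 ± 0.26 (adjusted p = 0.0475), a call that ended without either control culture, either peroxide culture or either culture of both treatments, with changes of 0.60 to 1.003. That difference was 1.60 under poly-A spike scaling and 0.33 with 50 added to the signals. At an unchanged 0.80, the call also ended in limma with no filter on low signals (adjusted p = 0.0653). It ended as well with no trend in the variance (0.0587) and with a replicate block whose carnitine numbers were crossed (0.0645). The peroxide difference was 0.65 ± 0.26 in carnitine-fed cells (adjusted p = 0.0526) and -0.22 ± 0.26 without carnitine. The interaction of 0.86 ± 0.37 had an adjusted p of 0.154 in limma.

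ADY2, also known as ATO1, encodes a plasma membrane transporter of acetate and ammonium. It read 7.18 and 10.3 in carnitine with peroxide cultures, 4.80 and 4.61 in peroxide cultures, 4.54 and 3.81 in carnitine cultures and 4.63 and 4.61 in control cultures. Only the 2 cultures given both treatments were above the highest fission yeast mean. The other 3 groups therefore give only an upper limit. With 4.947 in place of the signals of carnitine or peroxide cultures, the mean of cultures given both treatments was at least 1.74-fold higher. That bound compares group means and was not tested. The measured differences, 1.05 from carnitine and 0.87 from peroxide cultures, passed in limma (adjusted p = 0.000619 and 0.00756). Their sizes rest on reference groups at background. The measured log2 means were 3.10 in carnitine with peroxide, 2.23 in peroxide and 2.06 in carnitine cultures. With 50 added to the signals the differences were 0.12 and 0.10. The fitted interaction passed (adjusted p = 0.0345), but its size rests on 3 groups at the level of probe sets without a target. Leaving out control culture 1 or 2, carnitine culture 1 or 2, peroxide culture 2 or culture 2 of both treatments ended that call.

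**Figure D2:**
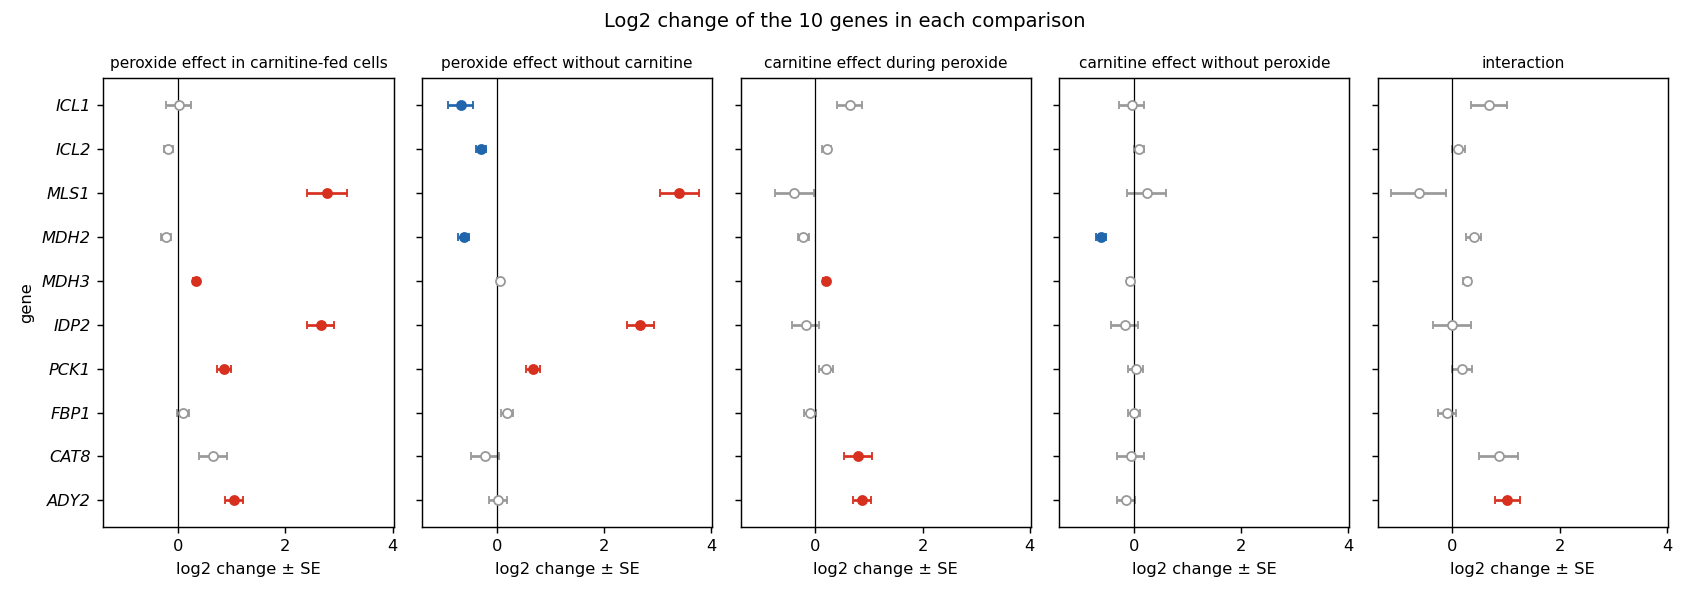
Log2 change ± SE of the 10 genes in the 5 comparisons, from limma over 8 arrays; red marks a gene that rose, blue one that fell, and open grey one that did not pass. MLS1 and IDP2 lie at 2.66 or more in both peroxide comparisons, MDH2 is the filled point for carnitine without peroxide, and ADY2, whose other 3 groups lay at background, is the filled point of the interaction.

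For peroxide in carnitine-fed cells, 5 of the 10 genes rose (MLS1, IDP2, ADY2, PCK1 and MDH3) and 0 fell. With median centring 5 rose and 2 fell, the falls being MDH2 (-0.28) and ICL2 (-0.24). Over all tested genes 35.8% rose and 39.1% fell in that comparison, and the median change was 0.49 for the 10 genes and -0.023 for all. The arrays of the groups did not overlap for 9 of the 10, 7 higher and 2 lower, against 43.4% and 45.7% of all tested genes. The 7 include FBP1, whose arrays in both groups lay below 4.947, the highest fission yeast mean. For peroxide without carnitine, 3 rose (MLS1, IDP2 and PCK1) and 3 fell (ICL1, MDH2 and ICL2), against 35.3% and 39.5% of all tested genes, with medians of 0.046 and -0.024. There 5 lay higher and 3 lower without overlap, against 42.0% and 45.7%. The 5 include FBP1, which was above 4.947 in peroxide culture 1 only. Without carnitine the counts of calls are close to those shares. By size of change, MLS1 lay at the 98.6th and IDP2 at the 97.6th percentile of all tested genes there. The split of calls over all genes depends on the scaling. Without carnitine 1877 genes rose and 2103 fell, against 573 and 2811 under poly-A and 2826 and 761 under hybridisation spike scaling. In carnitine-fed cells 1906 rose and 2081 fell, against 1418 and 1098 under poly-A and 2403 and 971 under hybridisation spike scaling. Among the 10 genes, 2 rose and 5 fell without carnitine under poly-A scaling, and 6 rose and 0 fell under hybridisation scaling. Those 6 include FBP1 (0.67) and ADY2 (0.51), which lay at background. The ADY2 arrays of both groups and the FBP1 control arrays were below 4.947.

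For carnitine during peroxide, 3 of the 10 genes rose (ADY2, CAT8 and MDH3) and 0 fell, where 18.8% and 16.7% of all tested genes did (35.5% in either direction). The medians were 0.198 for the 10 genes and 0.0078 for all. Without overlap 6 lay higher and 3 lower, against 37.5% and 36.0%. Here 1002 genes rose and 890 fell, against 4338 and 43 under poly-A spike scaling, under which 8 of the 10 rose. In the interaction 1 gene, ADY2, rose and 0 fell, beside 7.72% and 5.11% of all tested genes (12.8% in either direction), with medians of 0.223 for the 10 and 0.0066 for all; the all-gene split was 411 and 272, then 1443 and 20 under poly-A and 137 and 250 under hybridisation spike scaling. For carnitine alone 1 gene, MDH2, fell and 0 rose, against 1.03% and 0.470% of all tested genes (1.50% in either direction), with medians of -0.050 for the 10 and -0.0011 for all. Without overlap 1 lay higher and 2 lower, against 23.4% and 22.5%. The 2 include ADY2, whose carnitine and control arrays all lay below 4.947, the highest fission yeast mean. There 25 genes rose and 55 fell, against 21 and 24 under poly-A and 75 and 41 under hybridisation spike scaling, and MDH2 did not pass under either. The MDH2 change for carnitine alone lay at percentile 1.69 of all tested genes.

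The cultures of a group differed unequally over these genes. Across all tested genes the median difference between 2 cultures of a group was 0.0865 (both treatments), 0.0984 (peroxide), 0.0904 (carnitine) and 0.0898 (control) on the log2 scale. In control cultures, MLS1, IDP2, ICL1 and CAT8 were all higher in culture 1, by 1.29, 0.72, 0.69 and 0.44, at percentiles 99.7, 98.6, 98.3 and 96.3 of all tested genes. In carnitine cultures CAT8 and MLS1 were higher in culture 1, by 0.72 and 0.41, while IDP2 and ICL1 were higher in culture 2, by 0.47 and 0.33. In cultures given both treatments ADY2 differed by 0.51 and the other 9 by at most 0.15.

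**Figure D3:**
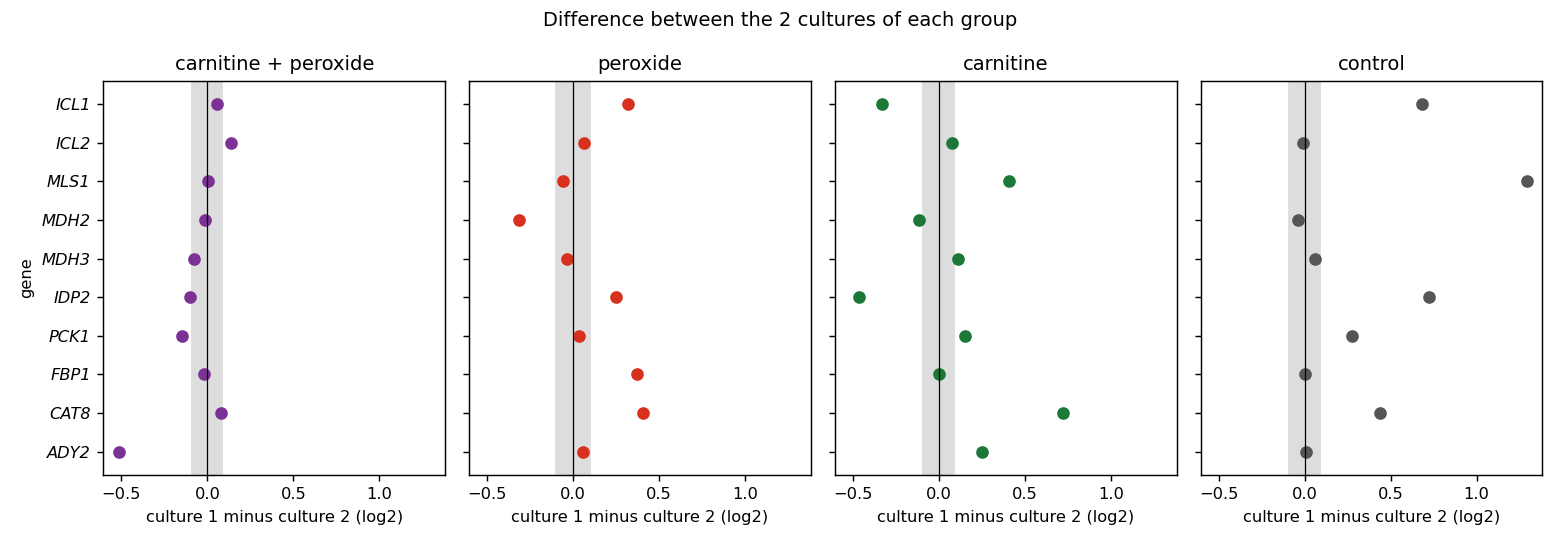
Log2 difference between culture 1 and culture 2 of each group for the 10 genes; the grey band is the median absolute difference over all tested genes (0.0865 to 0.0984). Control cultures show the widest spread, with MLS1 at 1.29, and cultures given both treatments show 9 of 10 genes within 0.15.

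Genes with the most similar profile were ranked by root mean square distance of log2 signals over the 8 arrays, each gene centred on its mean. For MLS1 they were SPS19, for a peroxisomal dienoyl-CoA reductase, at 0.231, DDR2, a stress-induced gene, at 0.264 and ARR2, for arsenate reductase, at 0.284, where the median gene lay at 1.61. For PCK1 they were DUF1, PRP4 and YMR027W at 0.0611, 0.0695 and 0.0785 (median 0.491). For ICL1 they were DCK1, DFG5 and LSC2 at 0.165, 0.165 and 0.168 (median 0.45), and for FBP1, whose signal lay near the floor, YJR079W, YNL277W-A and YMR105W-A at 0.0332, 0.0362 and 0.0483 (median 0.33). None of these 12 genes is among the 10, but only 10 of the 5324 tested genes are. The count therefore says little about whether the 10 share profiles.

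Isozymes and neighbouring enzymes of the same reactions included several with large rises under peroxide. Of 8 such genes (MDH1, IDP1, IDP3, DAL7, CIT1, CIT2, CIT3 and ACO1), 5 rose and 3 fell with peroxide in carnitine-fed cells (median 1.03), and 6 rose and 1 fell without carnitine (median 1.08), where 35.8% and 39.1%, then 35.3% and 39.5%, of all tested genes rose and fell. MDH1, for the mitochondrial malate dehydrogenase, read 27637 and 26783 in carnitine with peroxide cultures and 10838 and 10562 in carnitine cultures, a rise of 1.35 ± 0.043 (adjusted p = 3.29e-07). Without carnitine its rise was 1.25 ± 0.043 (adjusted p = 4.65e-07; 0.67 under poly-A spike scaling), so that among the 3 malate dehydrogenase genes the mitochondrial one rose, the cytosolic MDH2 fell and the peroxisomal MDH3 did not pass. CIT2, for the peroxisomal citrate synthase that feeds the cycle, rose by 1.52 ± 0.11 with and 1.54 ± 0.11 without carnitine (0.97 under poly-A spike scaling). IDP1, for the mitochondrial counterpart of IDP2, fell by 0.67 ± 0.051 with peroxide in carnitine-fed cells (adjusted p = 1.3e-05), but by 0.32, not passing, under hybridisation spike scaling (adjusted p = 0.0905).

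During peroxide, 0 of these 8 rose and 4 fell with carnitine (median -0.28), where 18.8% and 16.7% of all tested genes rose and fell. All 4 calls as falls depend on the scaling. ACO1, for aconitase, which makes the isocitrate that the lyase splits, read 14344 and 17391 in carnitine with peroxide cultures and 25865 and 30976 in peroxide cultures, a fall of 0.84 ± 0.11 (adjusted p = 0.00291). CIT3, for a mitochondrial citrate and methylcitrate synthase, fell by 1.18 ± 0.16 (adjusted p = 0.0033), CIT1 fell by 0.24 ± 0.043 and IDP1 fell by 0.30 ± 0.051; under poly-A spike scaling ACO1 was -0.043 (adjusted p = 0.862) and CIT3 -0.38 (adjusted p = 0.272), neither passing, and CIT1 and IDP1 turned to 0.56 and 0.50. Under hybridisation spike scaling CIT1 (-0.18) and IDP1 (-0.24) did not pass, and with 50 added to the signals CIT3 fell by 0.44. In the interaction 0 of these 8 rose and 3 fell, where 7.72% and 5.11% of all tested genes did. The interaction fell for CIT3 (-1.18 ± 0.22), ACO1 (-0.76 ± 0.15) and DAL7, for a second malate synthase (-0.80 ± 0.20), at adjusted p of 0.0256, 0.0276 and 0.0439. Under poly-A spike scaling these were -0.50, -0.082 and -0.13, none of which passed (adjusted p = 0.336, 0.829 and 0.755). Leaving out 1 array ended these 3 calls in 5, 6 and 7 of 8 cases, with changes of -1.40 to -0.96, -0.90 to -0.62 and -1.003 to -0.60. DAL7 differed with carnitine mainly in the absence of peroxide. Its mean signal was 3102 in carnitine and 1828 in control cultures (0.77, not passing in limma, adjusted p = 0.0524). It was 2353 in carnitine with peroxide cultures and 2397 in peroxide cultures. With carnitine alone CIT1, for mitochondrial citrate synthase, fell by 0.37 ± 0.043 (adjusted p = 0.0123), a call lost without control culture 1, carnitine culture 1 or carnitine culture 2 (-0.35, -0.38 and -0.36) and under poly-A (-0.25) or hybridisation (-0.18) spike scaling, and the other 7 did not pass. Over all tested genes 0.470% rose and 1.03% fell with carnitine alone.

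Among genes by which acetate, lactate and pyruvate enter the pathway, ATO2 stood apart. ATO2, the paralogue of ADY2, read 420.2 and 465 in carnitine with peroxide cultures, 178 and 159.8 in peroxide cultures, 40.2 and 42.8 in carnitine cultures and 69.8 and 96.2 in control cultures. It rose with peroxide by 3.41 ± 0.17 in carnitine-fed cells (adjusted p = 1.74e-06) and by 1.04 ± 0.17 without carnitine (adjusted p = 0.000774; 0.46, not passing, under poly-A spike scaling). The interaction was 2.37 ± 0.24 (adjusted p = 0.00891) and kept its call without any 1 array. ATO2 fell with carnitine alone by 0.98 ± 0.17 (adjusted p = 0.0409), although omission of any 1 array other than control culture 1 ended that call (-1.03 to -0.75), as did quantile normalization (-0.77), poly-A spike scaling (-0.86) and 50 added to the signals (-0.53). ATO3, the third gene of this family, fell with carnitine during peroxide by 0.68 ± 0.097 (adjusted p = 0.00353; 0.12, not passing, under poly-A spike scaling).

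Of the 9 entry genes, JEN1, for the lactate transporter, and SFC1, for the carrier that exchanges succinate from the cycle for mitochondrial fumarate, lay below the floor on every array. The other 7 gave 4 that rose and 3 that fell with peroxide in carnitine-fed cells (median 0.40), 3 and 1 without carnitine (median 0.13), 1 and 4 for carnitine during peroxide (median -0.41), 1 and 2 for the interaction (median -0.30), and 0 and 1 for carnitine alone (median -0.027). Over all tested genes the shares that rose and fell were, in the same order, 35.8% and 39.1%, 35.3% and 39.5%, 18.8% and 16.7%, 7.72% and 5.11%, and 0.470% and 1.03%. ACH1, for a mitochondrial CoA transferase acting on acetate, rose with peroxide by 1.58 ± 0.11 with and 1.91 ± 0.11 without carnitine. The pyruvate carboxylase genes went apart in carnitine-fed cells, where PYC1 rose by 0.64 ± 0.053 and PYC2 fell by 0.75 ± 0.087 with peroxide (adjusted p = 1.95e-05 and 0.000115). Under hybridisation spike scaling these were 0.99 and -0.40.

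Regulators of carbon source use were called in both directions with peroxide, at shares close to those of all genes. Of 18 listed, 6 rose and 8 fell in carnitine-fed cells (median -0.093), 7 rose and 9 fell without carnitine (median -0.17), 5 rose and 1 fell for carnitine during peroxide (median 0.11), 2 rose and 0 fell in the interaction (median 0.16) and none passed for carnitine alone, where the tool is limma and the median was -0.063. The shares of all tested genes that rose and fell were 35.8% and 39.1% with peroxide in carnitine-fed cells, 35.3% and 39.5% without carnitine, 18.8% and 16.7% for carnitine during peroxide and 7.72% and 5.11% in the interaction. For carnitine alone 1.50% of all tested genes were called in either direction. ADR1, for an activator of genes of ethanol and fatty acid use, read 1139 and 1153 in carnitine with peroxide cultures, 743 and 999 in peroxide cultures, 159.96 and 71.5 in carnitine cultures and 91.6 and 162 in control cultures. It rose by 3.42 ± 0.40 in carnitine-fed cells (adjusted p = 0.000118) and by 2.82 ± 0.40 without carnitine (adjusted p = 0.000379), the second value being chosen after it was seen.

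MIG1, for the repressor that binds gluconeogenic promoters in glucose, read 2997.5 and 3116 in carnitine with peroxide cultures, 1843 and 1412 in peroxide cultures, 5573 and 5471 in carnitine cultures and 5489 and 5154 in control cultures. Peroxide lowered it in both backgrounds, and the group with carnitine lay between peroxide and the untreated groups. MIG1 fell with peroxide by 1.72 ± 0.12 without carnitine (adjusted p = 9.07e-06), was higher with carnitine during peroxide by 0.92 ± 0.12 (adjusted p = 0.00304) and had an interaction of 0.87 ± 0.17 (adjusted p = 0.0265), which did not pass on leaving out any 1 array other than the 2 of peroxide (0.82 to 0.91). Under poly-A spike scaling the carnitine difference during peroxide was 1.72 and the interaction 1.54. Its relative MIG2 fell with peroxide by 1.95 ± 0.20 (adjusted p = 7.33e-05) and was higher with carnitine during peroxide by 0.89 ± 0.20 (adjusted p = 0.0146), a call that ended without peroxide culture 2 (0.63) or culture 2 of both treatments (0.72), and which was 1.69 under poly-A spike scaling. INO2, listed here although it is chiefly an activator of phospholipid synthesis, fell with peroxide by 2.37 ± 0.16. REG1, for a subunit of the phosphatase that keeps Snf1 inactive in glucose, rose by 0.92 ± 0.061 in both backgrounds, and without carnitine by 0.34, not passing, under poly-A and 1.399 under hybridisation spike scaling.

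Glycolytic genes, which share the reversible steps of the path, changed little apart from a few isozymes. All 9 reversible-step genes measured rose with peroxide in carnitine-fed cells, but with a median of 0.13, where 35.8% of all tested genes rose. Under poly-A spike scaling PGI1 (0.30) and ENO2 (0.25) did not pass in that comparison. Without carnitine 4 of 9 rose and 0 fell (median 0.084), where 35.3% and 39.5% of all tested genes did. Under poly-A spike scaling the rises of PGI1 and TPI1 there turned to -0.42 and -0.46, neither passing. For carnitine alone, carnitine during peroxide and the interaction 0 of 9 passed in limma (medians of -0.018, 0.021 and 0.047). Over all tested genes 1.50%, 35.5% and 12.8% were called in either direction in these comparisons. TDH1, for a minor glyceraldehyde-3-phosphate dehydrogenase, rose by 1.11 ± 0.049 with and 1.16 ± 0.049 without carnitine (0.58 under poly-A spike scaling), and ENO1, for an enolase, by 0.52 ± 0.042 and 0.47 ± 0.042, which were 0.87 and 0.95 under hybridisation spike scaling, the second being -0.11 under poly-A spike scaling. These 9 probe sets read 22281 to 72265, near the top of the signal range.

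Of 10 genes of the one-way steps and their control, 6 rose and 0 fell with peroxide in both backgrounds (medians 0.70 with and 0.41 without carnitine), where 35.8% and 39.1%, then 35.3% and 39.5%, of all tested genes rose and fell. PYK2, for a pyruvate kinase of low-flux conditions, rose by 2.05 ± 0.11 with and 2.02 ± 0.11 without carnitine. FBP26, which runs against glycolysis by removing fructose-2,6-bisphosphate, rose by 1.84 ± 0.12 and 1.58 ± 0.12, the second reduced by more than 1.5 times under poly-A spike scaling. For carnitine during peroxide 3 rose and 0 fell (median 0.025; 18.8% and 16.7% of all tested genes), among them the hexose kinase gene HXK1 by 0.78 ± 0.15 (adjusted p = 0.00794; 0.74, no longer passing, without culture 1 of both treatments, and 1.58 under poly-A spike scaling). HXK1 read 46323 and 44038 in carnitine with peroxide cultures and 29847 and 23295 in peroxide cultures. The interaction called 2 that rose and 0 that fell (median 0.098, with 7.72% and 5.11% of all tested genes). Carnitine alone called 0 in limma (median -0.057), where 1.50% of all tested genes were called in either direction.

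Genes of the GID ubiquitin ligase, which marks gluconeogenic enzymes for destruction when glucose returns, had rises in 6 or 7 of 9 cases with peroxide. Of 9 listed with partners, 7 rose and 1 fell in carnitine-fed cells (median 1.54), 6 rose and 1 fell without carnitine (median 1.43), 0 rose and 4 fell for carnitine during peroxide (median -0.097), and 0 passed in limma in the interaction and for carnitine alone (medians 0.11 and -0.20). The shares of all tested genes that rose and fell were 35.8% and 39.1%, 35.3% and 39.5%, and 18.8% and 16.7% in the first 3 of these comparisons. In the interaction 12.8% of all tested genes were called in either direction, and for carnitine alone 1.50%. VID30, for a core subunit, read 2679 and 2255 in carnitine with peroxide cultures and 561 and 495 in carnitine cultures, a rise of 2.22 ± 0.13 (adjusted p = 3.19e-06), and it rose by 2.04 ± 0.13 without carnitine (adjusted p = 5.45e-06). UBC8, for the ubiquitin-conjugating enzyme that works with the ligase, rose by 2.08 ± 0.099 with and 1.68 ± 0.099 without carnitine (1.10 under poly-A spike scaling). VID22, a partner in the vacuolar breakdown of fructose-1,6-bisphosphatase that is not a ligase subunit, was the 1 that fell in both backgrounds. The 4 falls for carnitine during peroxide, of RMD5, FYV10, VID22 and GID8 (-0.39, -0.45, -0.37 and -0.34), turned to 0.41, 0.35, 0.43 and 0.46 under poly-A spike scaling, did not pass under hybridisation spike scaling (-0.33, -0.39, -0.31 and -0.28), and leaving out 1 array ended them in 4, 4, 5 and 7 of 8 cases, with GID8 at -0.22 without peroxide culture 2.

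**Figure D4:**
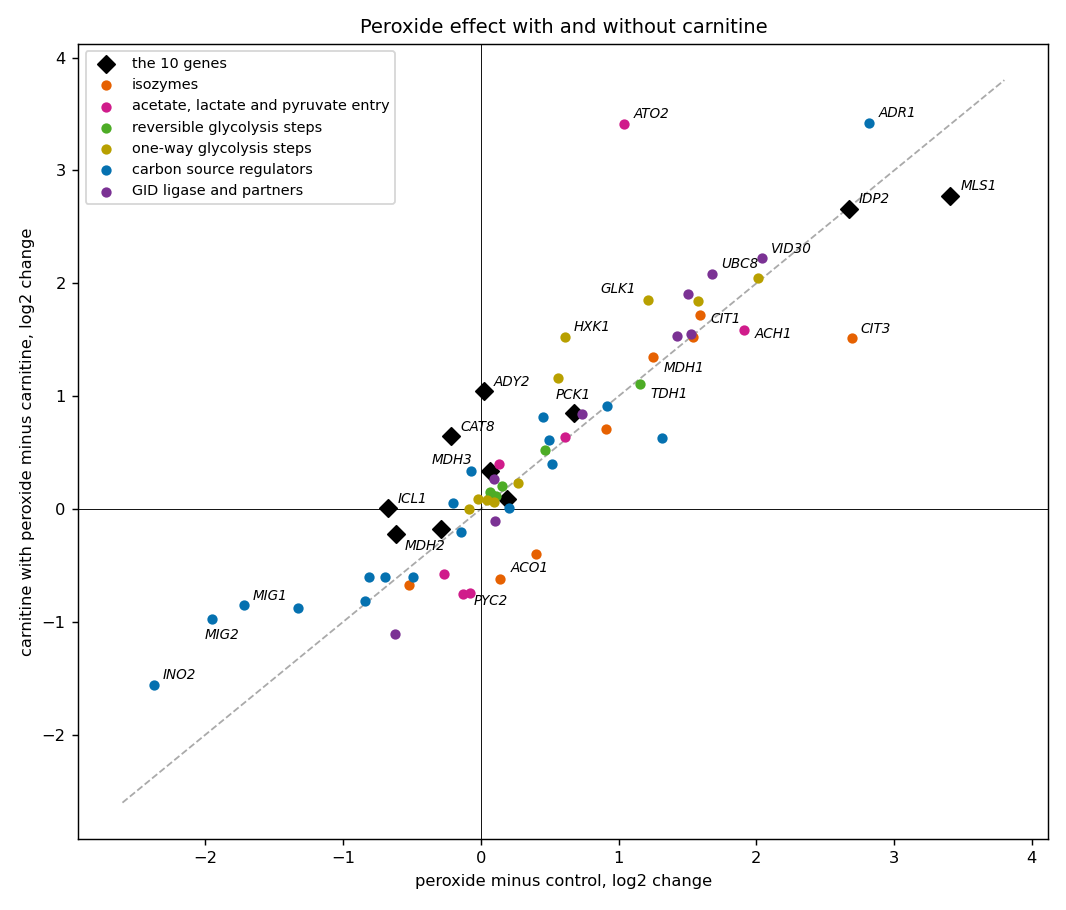
Log2 change with peroxide in carnitine-fed cells (vertical axis) against that without carnitine (horizontal axis) for the 10 genes (diamonds) and 61 tested genes of the 6 lists (circles); each axis uses its own 4 arrays, and the dashed line marks equal change. ATO2 lies farthest above the line (3.41 against 1.04), and CIT3 lies below it at 1.51 against 2.69; the position of ADY2 rests on signals at background in 3 groups.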

How the data were processed

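RNA of 8 cultures was measured on 1-colour Affymetrix arrays holding 10928 probe sets for budding and fission yeast. The deposited values are linear signal intensities, already summarised per probe set; GCOS is named in the submitters' processing notes, and its version, the summary method and any normalization are not stated by them. Gene symbols came from the platform annotation, in which 5498 probe sets name 1 S. cerevisiae gene, 1 names several and 3683 name none, and 12 symbols were updated. Where a gene had several probe sets, 1 was kept. Values were kept as deposited, since array medians differed by 5.08%, below the limit of 10%, and were taken to log2 with nothing added. Genes with a mean below the 95th percentile of 1746 fission yeast probe sets were left out (125 genes). A model with 4 group means was fitted over 5324 genes in limma 3.58.1 (R 4.3.3) with a trend in the variance, Benjamini-Hochberg adjustment over all genes and a threshold of 0.05. The interaction is the peroxide change with carnitine minus that without. The comparisons share groups, and 2 arrays a group limit the precision. The code was tested on simulated data. Figures used matplotlib 3.10.9. All 10 genes are named, with at most 4 genes per further list and comparison by size of moderated t. The genes and lists were chosen with earlier results of these data known. Replicate numbers were not used to pair the samples in the main fit. Differences between cultures of a group correlated at -0.112 to 0.132 between groups, which does not settle whether cultures were paired.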

Additional observations from a re-analysis of the deposited data

Results flagged for a closer look

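ADY2, the acetate and ammonium transporter gene, passed the limma test of a different peroxide response in carnitine-fed and other cells, with a fitted interaction of 1.02 on the log2 scale (adjusted p = 0.0345). That size is not a measured response, because 6 of the 8 arrays lay below 4.947, the top mean among fission yeast probe sets, and 1 of them, at 3.81, below the floor. Both cultures given both treatments lay above it, at 7.18 and 10.3. With 50 added to the signals the interaction was 0.11 and did not pass. Over 18 alternatives the adjusted p ran between 0.00737 and 0.0988, and 8 alternatives kept the call. Its paralogue ATO2 had an interaction of 2.37 ± 0.24 at signals well above the floor.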

How the results depend on the processing

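With 2 arrays a group and signals near the floor for FBP1 and ADY2, small changes of these genes were not detectable. Counts of the 10 genes called, then of all genes called, depended on the processing as follows; causes were not tested. For peroxide in carnitine-fed cells (5 and 3987), all genes gave 2516 under poly-A spike scaling, a filter at the 40th percentile of signal gave 1 and 2640, and leaving out 1 array gave 5 to 6 and 3597 to 3986; with the replicate block 7 of the 10 passed. For peroxide without carnitine (6 and 3980), that filter gave 1 and 2585, and leaving out 1 array 4 to 6 and 3639 to 3938. The filter removes most of the 10 genes. For carnitine during peroxide (3 and 1892), poly-A scaling gave 8 and 4381, hybridisation spike scaling 907 for all genes, the filter 1 and no trend in the variance 1 of the 10, and leaving out 1 array 1 to 3 and 786 to 1763. For carnitine alone (1 and 80), 0 of the 10 passed under poly-A or hybridisation spike scaling, with no filter, with 50 added or with no trend, all genes gave 45 under poly-A scaling, 41 with no filter and 15 with only the arrays compared, and leaving out 1 array gave 0 to 1 and 17 to 54 (772 genes had an unadjusted p below 0.05). For the interaction (1 and 683), 0 of the 10 passed under quantile normalization, hybridisation spike scaling, no filter, the filter or 50 added, 5 under poly-A scaling and 2 with a replicate block, all genes gave 1463 under poly-A scaling, 387 under hybridisation spike scaling and 449 with no filter, and leaving out 1 array gave 0 to 1 and 17 to 969. With the replicate block all genes gave 4009, 4004, 1972, 106 and 863 in the order above, and with the carnitine numbers crossed, a pairing chosen after seeing the data, 3992, 3972, 1845, 61 and 697.

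Among values that passed the test in one of the settings compared, 21 turned sign, all under spike scaling. Under poly-A spike scaling these were, for carnitine during peroxide, MDH2 (0.58), IDP2 (0.62), IDP1 (0.50), CIT1 (0.56), PYC2 (0.18), ATO3 (0.12), ACH1 (0.14), SNF1 (0.46), RMD5 (0.41), FYV10 (0.35), VID22 (0.43) and GID8 (0.46). For the interaction they were PYC2 (0.054) and ATO3 (0.011), and for peroxide without carnitine MDH3 (-0.51), ENO1 (-0.11), PGI1 (-0.42), TPI1 (-0.46) and PFK26 (-0.020). Under hybridisation spike scaling they were, for peroxide without carnitine, ICL2 (0.19) and ACS2 (0.21). Values that passed in neither setting turned sign in 27 further cases under a scaling (first the value as reported, then the alternative), among them MLS1 (-0.39 to 0.41) and FBP1 (-0.097 to 0.70) for carnitine during peroxide under poly-A spike scaling, and under hybridisation spike scaling CAT8 (-0.22 to 0.27) for peroxide without carnitine and MDH2 (-0.22 to 0.13) and ICL2 (-0.18 to 0.17) for peroxide in carnitine-fed cells. Leaving out 1 array turned 21 such values, for example MLS1 for carnitine alone (0.24 to -0.41 without control culture 2), and 0 that passed.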
